A study of Homo sapiens with 12 samples.

Results

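The 3' part of human 18S ribosomal RNA, from position 1201 to its last position 1869, was examined for ribose methylation in cells without GPATCH4 and in cells depleted of DHX15. The stretch was taken by position alone. It holds 669 of the 8164 positions in the deposited tables and 13 of the 141 methylation sites that the authors list, while the other 28 listed sites of 18S lie upstream. The remaining 656 positions, among them U1248, are not listed as ribose-methylated and serve as background. The RNA came from Flp-In T-Rex HEK293 cells, which derive from human embryonic kidney and accept inducible transgenes at a fixed site, grown in all groups in high-glucose DMEM with foetal calf serum. Each of 4 groups had 3 libraries, which the titles call biological replicates. WT was the unaltered line and GPATCH4 KO a knockout of GPATCH4 in that line, of which the labels do not say whether it is 1 clone. In the siNT group the unaltered line was transfected with non-target siRNA and in the siDHX15 group with siRNA against DHX15. The amounts of GPATCH4 and DHX15 in these cells were not analysed here. The series asks which methylation sites depend on each of these proteins.

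The 3' major domain of 18S forms the head of the small ribosomal subunit, and the 3' minor domain that follows carries the decoding centre, where codon and tRNA anticodon are paired. Most ribose methyl groups of rRNA are placed by the methyltransferase fibrillarin, guided to a single nucleotide by a box C/D small nucleolar RNA that pairs with the sequence around it. DHX15 belongs to the DEAH-box helicases, enzymes that remodel RNA, and such helicases are bound and stimulated by proteins with a G-patch motif, of which GPATCH4 is one. RefSeq (GRCh38.p14) annotates 5 copies of the 18S gene, all of 1869 nt, of which 3 lie on chromosome 21, for example RNA18SN1 at 21:8436876-8438744. Reads cannot be assigned to a single copy. In this RNA gene there is no coding sequence or UTR.

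RiboMeth-seq counts the ends of fragments left by partial alkaline hydrolysis. A ribose methyl group protects the bond that follows it, so few read ends fall on a methylated nucleotide compared with its neighbours. The RMS score is a fraction, 0 where the position has at least as many ends as the weighted mean of its 6 neighbours on each side, and 1 where it has none. As it compares counts of ends and does not count methylated molecules, no binomial interval was computed. A library held between 875096 and 16314082 read ends over all RNAs, and the stretch took 11.3 to 16% of them. The siRNA libraries were shallower, with at most 5111963 ends against at least 7437847 in WT and knockout libraries. The median neighbour mean at the 13 sites was 1034 to 3256 read ends in the latter and 226.7 to 1006 in the siRNA libraries, and the lowest at any site was 78.2. Counts bound only the counting error, since no molecular identifiers mark reads copied from 1 fragment.

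The 13 sites are 4 cytidines, 4 uridines, 3 guanosines and 2 adenosines, and several lie within reach of each other. Um1326 and Gm1328 are 2 nt apart, Cm1440 and Um1442 are 2 nt apart with Gm1447 5 nt further on, and 8 nt separate Am1383 from Cm1391. The sequences are shown with 10 nt on each side, written 5' to 3' as in the deposited tables. Guide RNAs pair with sequence around a site, and sites within 6 nt enter each other's score. The windows have a fixed flank and were not matched to the guides. Capitals mark the listed sites.
Cm1272: cucacccggcCcggacacgga
Um1288: acggacaggaUugacagauug
Um1326 and Gm1328: ccguggguggUgGugcauggccg
Am1383 and Cm1391: ccgauaacgaAcgagacuCuggcaugcua
Cm1440, Um1442 and Gm1447: cgucccccaaCuUcuuaGagggacaagu
Gm1490: agcaauaacaGgucugugaug
Am1678: ugcguugauuAagucccugcc
Cm1703: guacacaccgCccgucgcuac
Um1804: cggucgaacuUgacuaucuag
The window of Cm1703 is part of the conserved decoding sequence of the 3' minor domain. G and C make up 56.7% of the whole stretch, 76.2% of the window of Cm1272 and 42.9% of that of Gm1490.

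Known guides, given here as background, are SNORD66 for Cm1272, SNORD110 for Um1288, SNORD33 for Um1326, SNORD32A for Gm1328, SNORD30 for Am1383, SNORD28 for Cm1391, SNORD61 for Um1442, SNORD127 for Gm1447, SNORD25 for Gm1490, SNORD82 for Am1678, SNORD43 for Cm1703 and SNORD20 for Um1804. No guide is named here for Cm1440. In the RefSeq annotation SNORD33 and SNORD32A lie within RPL13A, SNORD30, SNORD28 and SNORD25 within SNHG1, and SNORD82 and SNORD20 within NCL.

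Of the 13 sites, 8 were called lower in GPATCH4 KO, in siDHX15 or in both, against 70 of all 141 listed sites (49.6%). Um1326, Cm1391 and Gm1447 were called lower in GPATCH4 KO and not in siDHX15, Gm1328, Am1383 and Gm1490 in siDHX15 and not in GPATCH4 KO, and Um1442 and Um1804 in both. Cm1272, Um1288, Cm1440, Am1678 and Cm1703 were called in neither. No site of the stretch was called higher. A site was called where limma, fitted to the scores of all 12 libraries, gave a two-sided p under 0.05 after Benjamini-Hochberg adjustment over all 141 listed sites.

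**Figure D1:**
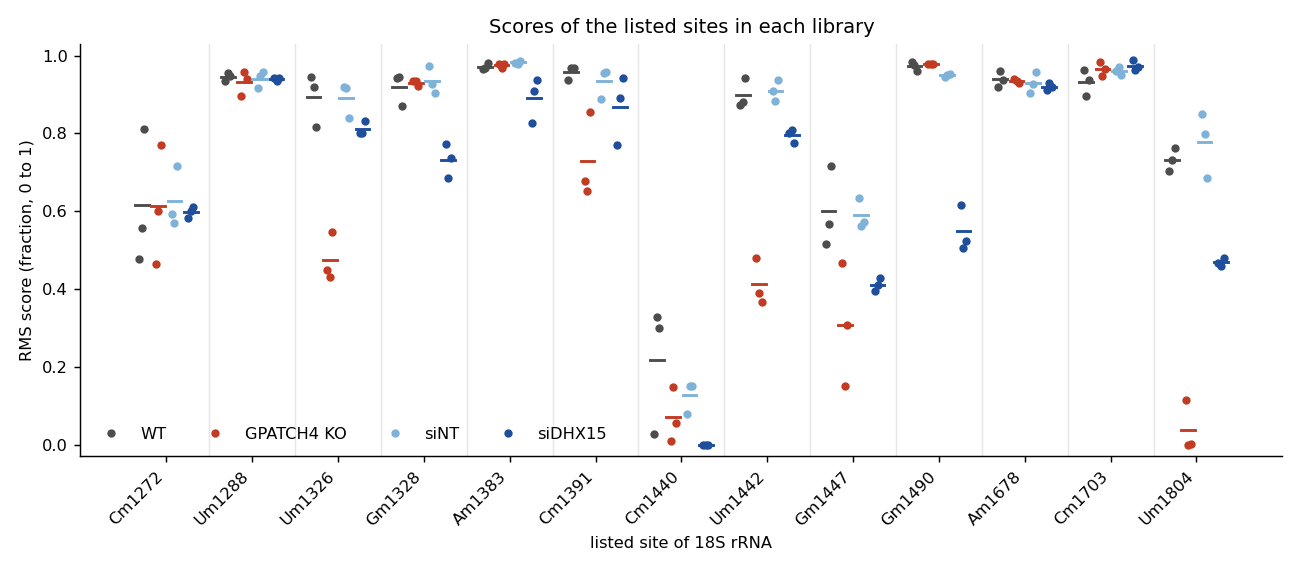
RMS score (fraction) of the 13 listed sites in each library. Points are single libraries, lines are means of 3, and colours are the groups. Um1804 lies between 0 and 0.114 in GPATCH4 KO and at 0.703 or more in WT, and Gm1490 between 0.505 and 0.616 in siDHX15 and at 0.946 or more in siNT.

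In WT, 7 sites had a mean score of 0.9 or more. In descending order these were Gm1490 at 0.973 ± 0.0121 (SD, n = 3), Am1383 at 0.972 ± 0.00782, Cm1391 at 0.958 ± 0.0181, Um1288 at 0.946 ± 0.00997, Am1678 at 0.939 ± 0.0211, Cm1703 at 0.932 ± 0.0343 and Gm1328 at 0.919 ± 0.0424. Um1442 followed at 0.899 ± 0.0381 and Um1326 at 0.895 ± 0.0678. Each step between neighbours among these 9 sites was at most 0.02 and smaller than the larger SD of the pair, so their order is not settled. Um1804 was 0.163 below Um1326 and stood at 0.732 ± 0.0293. Cm1272 at 0.615 ± 0.175 and Gm1447 at 0.60 ± 0.104 did not differ beyond their spread. Cm1440 was lowest at 0.218 ± 0.166. The median over the 13 sites was 0.919 in WT and 0.930 in siNT, against 0.912 and 0.935 over the 28 listed sites upstream in 18S.

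The untransfected and the transfected controls were compared as a background. None of the 13 sites was called in siNT against WT by limma on the scores, where none had an unadjusted p under 0.05, and edgeR also called 0. Over all listed sites 0 of 141 (0%) were called and 10 had an unadjusted p under 0.05. The interval of the difference was narrow at Am1678, from -0.0484 to 0.0302, and at Um1288, from -0.0473 to 0.0366 (95% intervals of the limma fit), and wide at Cm1272, from -0.196 to 0.218. All 3 siNT values of Gm1490, at 0.946, 0.95 and 0.952, lay below the 3 WT values, at 0.984, 0.976 and 0.960, as was so at 6 of the 141 listed sites (4.26%) and at no other of the 13. Here limma gave a difference of -0.0239 (adjusted p = 0.837). Relative to their neighbours, read ends at Gm1490 were 2.06-fold those in WT. In the limma test of log2 relative ends over all positions, the unadjusted p was 0.0115 and the adjusted p 0.393.

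In GPATCH4 KO 5 of the 13 sites were called lower than in WT, against 35 of all 141 listed sites (24.8%) and 12 of the 28 upstream in 18S. The median difference was -0.0146 over the 13 sites, -0.0433 over the 28 and -0.00607 over the 141. At the 5 called sites and at no other of the 13 every knockout value lay below every WT value, against 44 of the 141 (31.2%). Each library was also centred by its median deviation from the site means over all listed sites, the same shift for every site. The same 5 sites were then called lower and Cm1703 was called higher, a split of 5 to 1.

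Um1804, in the 3' minor domain, lost nearly its whole signal. It scored 0.703, 0.730 and 0.762 in WT and 0.114, 0 and 0.000344 in GPATCH4 KO. The knockout values were thus all close to 0 and far from WT, with a difference of -0.694 ± 0.0429 (SE, limma adjusted p = 6.33e-07). Before the floor at 0 the second knockout library stood at -0.0211, with 2374 read ends at the site against a neighbour mean of 2325. Relative to their neighbours, read ends at the site were 3.62-fold those in WT.

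Um1442 had scores of 0.874, 0.880 and 0.943 in the WT libraries, and of 0.480, 0.389 and 0.367 in those without GPATCH4. The mean fell by 0.487 ± 0.0312 (SE, limma adjusted p = 6.64e-07), to less than was measured in any siNT or siDHX15 library. Um1326, in the 3' major domain, had WT scores of 0.946, 0.920 and 0.818 and knockout scores of 0.450, 0.431 and 0.545. Its mean fell by 0.419 ± 0.0402 (limma adjusted p = 1.31e-05). On the score scale the losses at Um1326, Um1442 and Um1804 were the largest of the 13 sites in the knockout, whereas as log2 relative read ends Cm1391 changed most (2.65, against 2.62 at Um1442, 2.49 at Um1326 and 1.86 at Um1804). Um1288, the fourth uridine, had scores of 0.936, 0.955 and 0.948 in WT and of 0.896, 0.958 and 0.941 in the knockout, groups that overlapped.

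Cm1391 scored 0.937, 0.968 and 0.968 in WT and 0.677, 0.653 and 0.856 in the knockout. Knockout replicate 3 stood above the other two, and the difference was -0.229 ± 0.0562 (limma adjusted p = 0.0114). From read 5' ends alone the difference was smaller, -0.0970 (adjusted p = 0.00895). Gm1447 had WT scores of 0.516, 0.568 and 0.717 and knockout scores of 0.466, 0.151 and 0.308, which was the widest spread between knockout libraries at any called site. The difference was -0.292 ± 0.0730 (limma adjusted p = 0.0124). This call was lost when only WT and the knockout were fitted (adjusted p = 0.0867), from read 5' ends alone (-0.203, adjusted p = 0.130) and from read 3' ends alone (-0.209, adjusted p = 0.261), and it held in 8 of 11 draws in which all libraries were thinned to the depth of the shallowest.

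At the 3 sites called only in siDHX15, the knockout values lay within or next to those of WT. Gm1328 scored 0.942, 0.945 and 0.870 in WT and 0.934, 0.934 and 0.921 in the knockout, a difference of 0.0106 with a 95% interval from -0.0534 to 0.0746. Am1383 had 0.966, 0.969 and 0.981 in WT and 0.979, 0.967 and 0.980 in the knockout. Gm1490 had 0.984, 0.976 and 0.960 in WT and 0.978 in every knockout library, with an interval of the difference from -0.0524 to 0.0616. The interval of Am1383 ran from -0.0509 to 0.0581.

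The sites called in neither perturbation differed in how well they were measured. Am1678 scored 0.919, 0.961 and 0.937 in WT and 0.939, 0.934 and 0.931 in the knockout, and the difference had an interval from -0.0438 to 0.0348. Cm1703 scored 0.963, 0.895 and 0.937 in WT and 0.982, 0.947 and 0.966 in the knockout, a difference of 0.0334 (limma adjusted p = 0.270). It became the higher call named above when libraries were centred (0.0621, adjusted p = 0.0357). Cm1272 varied from 0.477 to 0.812 between WT libraries and from 0.465 to 0.771 between knockout libraries, so a difference between -0.210 and 0.204 was within its interval.

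Cm1440 had a low mean score in every group, and all siDHX15 libraries were at the floor of 0. It scored 0.0268, 0.329 and 0.299 in WT and 0.00839, 0.149 and 0.0554 in the knockout, and the groups overlapped through the first WT library (difference -0.147, limma adjusted p = 0.168). Without that library it was called lower in the knockout (-0.243, adjusted p = 0.00144), which made 6 lower calls, and also from read 3' ends alone (-0.414, adjusted p = 0.00574).

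In siDHX15 5 of the 13 sites were called lower than in siNT, against 44 of all 141 listed sites (31.2%) and 9 of the 28 upstream in 18S. The median difference was -0.0917 over the 13 sites, -0.0613 over the 28 and -0.0569 over the 141. With each library centred, the calls split into 3 lower and 3 higher, namely Gm1328, Gm1490 and Um1804 lower, and Um1288 (0.0685, adjusted p = 0.0249), Am1678 (0.0597, adjusted p = 0.0365) and Cm1703 (0.0826, adjusted p = 0.00859) higher. Centring moves the difference of every site by the same amount, here upward, where the median over the 141 was -0.0569. The centred calls therefore rank sites against the other listed sites, and the higher ones do not show a gain in score. From read 3' ends alone 2 sites were called.

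Gm1490 changed most. It scored 0.946, 0.95 and 0.952 in siNT and 0.616, 0.505 and 0.523 in siDHX15, so that the groups lay far apart with little spread in the control. The difference was -0.401 ± 0.0254 (SE, limma adjusted p = 1.19e-06), and read ends at the site were 8.70-fold those in siNT relative to their neighbours. Gm1328 had siNT scores of 0.972, 0.927 and 0.904 and siDHX15 scores of 0.773, 0.686 and 0.737. Its mean fell by 0.202 ± 0.0286 (limma adjusted p = 0.000324), and by 0.133 with each library centred (adjusted p = 0.00452).

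Um1804 scored 0.85, 0.797 and 0.685 in siNT and 0.468, 0.460 and 0.479 in siDHX15. The siDHX15 libraries lay close to each other and below all control libraries, and the mean fell by 0.308 ± 0.0429 (limma adjusted p = 0.000302). The call was lost on the logit scale (adjusted p = 0.0741) and from read 3' ends alone (-0.236, adjusted p = 0.0528).

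The other 2 called sites had smaller losses on the score scale, although as log2 relative read ends Am1383, at 2.48, changed more than Gm1328, at 2.16, and Um1804, at 1.32. Am1383 scored 0.982, 0.979 and 0.987 in siNT and 0.827, 0.909 and 0.936 in siDHX15, a difference of -0.0917 ± 0.0243 (limma adjusted p = 0.0158). Its lowest value came from siDHX15 replicate 1, the shallowest library, without which the difference was -0.0600 (adjusted p = 0.0111), and from read 5' ends alone it was -0.0497 (adjusted p = 0.00305). The call was lost when only siNT and siDHX15 were fitted (adjusted p = 0.0833), from read 3' ends alone (adjusted p = 0.0528), with each library centred (-0.0226, adjusted p = 0.535) and with a block for library index (adjusted p = 0.215).

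Um1442 scored 0.908, 0.883 and 0.938 in siNT and 0.801, 0.809 and 0.776 in siDHX15. The groups did not overlap, and the difference was -0.114 ± 0.0312 (limma adjusted p = 0.0177). This was the call that rested most on the processing. It was lost at a similar difference when siNT replicate 3 (-0.100, adjusted p = 0.0678) or siDHX15 replicate 3 (-0.105, adjusted p = 0.0581) was left out and with 2 neighbours on each side (-0.0990, adjusted p = 0.133), and at a larger one from read 3' ends alone (-0.148, adjusted p = 0.0811). It was also lost with each library centred (-0.0452, adjusted p = 0.339) and with a block for library index (-0.0407, adjusted p = 0.423), and it held in 5 of 11 thinning draws.

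Every siDHX15 value lay under every siNT value at 8 of the 13 sites, against 62 of the 141 (44%). They were the 5 called sites and 3 below the threshold. Um1326 scored 0.919, 0.916 and 0.838 in siNT and 0.801, 0.802 and 0.831 in siDHX15 (difference -0.0801, limma adjusted p = 0.165). It was called with a block for library index (-0.147, adjusted p = 0.0400) and from read 5' ends alone (-0.123, adjusted p = 0.0456), while with each library centred the difference was -0.0109. Gm1447 had 0.635, 0.563 and 0.571 in siNT and 0.394, 0.411 and 0.428 in siDHX15 (difference -0.178, limma adjusted p = 0.0942). Its siDHX15 libraries were close together, and it was called when only these groups were fitted (adjusted p = 0.00425) or when GPATCH4 KO replicate 1 (adjusted p = 0.0379) or 2 (adjusted p = 0.0335), which widen the shared spread, was left out.

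At Cm1440 the siNT scores were 0.0780, 0.149 and 0.151, and all siDHX15 scores were at the floor of 0 (difference -0.126, limma adjusted p = 0.214). Before the floor the siDHX15 values were -0.107, -0.136 and -0.151, and on that scale the difference was -0.257 (adjusted p = 0.0196). It was also called without WT replicate 1 (adjusted p = 0.0240), with listed neighbours left out of the neighbour mean (-0.185, adjusted p = 0.0379), on the logit scale (adjusted p = 0.0231) and when only siNT and siDHX15 were fitted (adjusted p = 0.0136).

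The remaining sites overlapped between siNT and siDHX15. Cm1391 scored 0.890, 0.956 and 0.958 against 0.771, 0.891 and 0.941 (difference -0.0668, interval from -0.193 to 0.0590). Um1288 scored 0.917, 0.948 and 0.958 against 0.943, 0.935 and 0.943, and Am1678 0.905, 0.927 and 0.958 against 0.910, 0.931 and 0.921, with intervals from -0.0426 to 0.0413 and from -0.0487 to 0.0299. These were the narrowest intervals among the 13 sites. Cm1703 scored 0.961, 0.971 and 0.951 against 0.99, 0.963 and 0.971. Cm1272 scored 0.593, 0.569 and 0.717 against 0.583, 0.60 and 0.610, with an interval from -0.235 to 0.179.

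**Figure D2:**
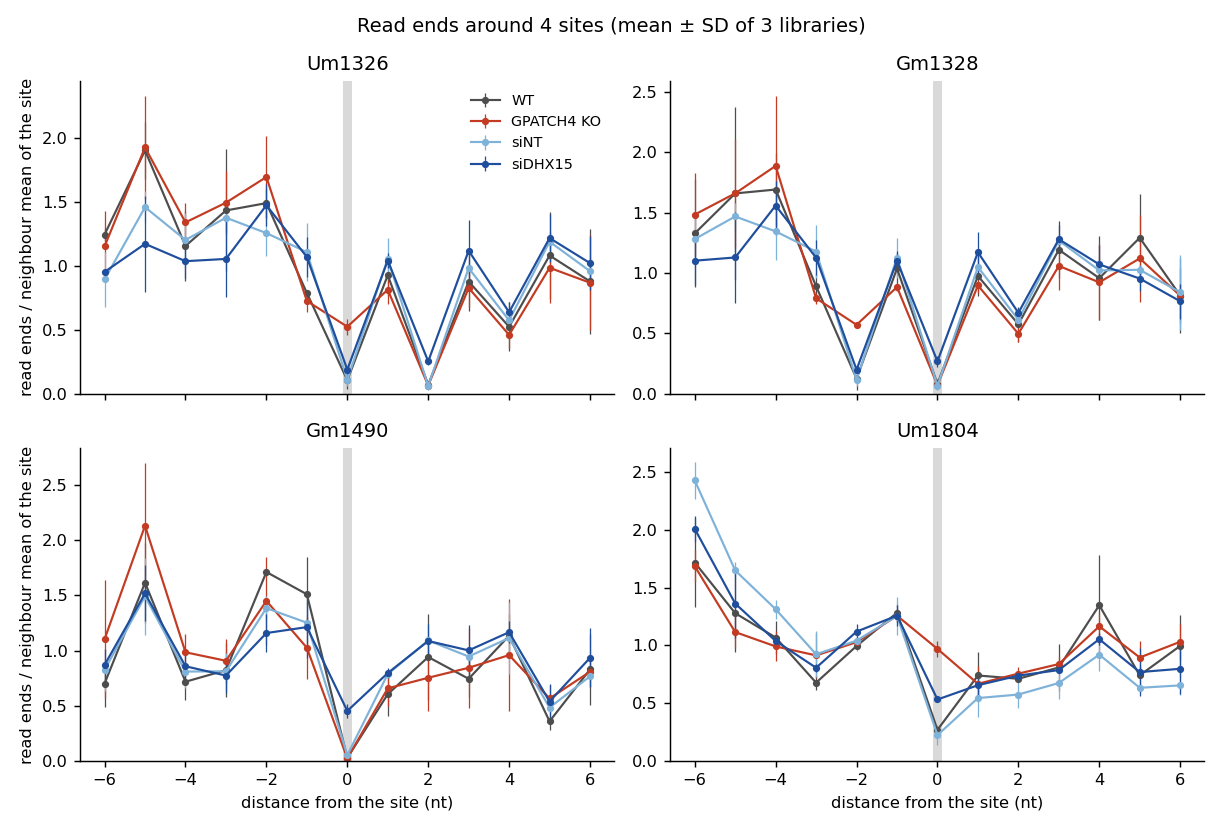
Read ends around Um1326, Gm1328, Gm1490 and Um1804, each divided by the weighted neighbour mean of the site in that library (vertical axes), by distance from the site in nt. Lines are means and bars the SD of 3 libraries. Of Um1326 and its neighbour Gm1328, 2 nt away, GPATCH4 KO has the most ends at the former and siDHX15 at the latter. At Um1326 siDHX15 also has more ends than siNT, 1.81-fold relative to neighbours (not called). At Um1804 the knockout line runs without a dip.

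Whether the 2 perturbations acted unequally on a site was tested directly as the difference of both effects. Of the 13 sites 5 were called, against 53 of all 141 (37.6%). Um1326, Um1442 and Um1804 lost more in GPATCH4 KO than in siDHX15, by 0.339 ± 0.0568, 0.373 ± 0.0441 and 0.386 ± 0.0606 (SE, limma adjusted p = 0.000941, 0.000115 and 0.000603). Gm1328 and Gm1490 lost more in siDHX15, by 0.213 ± 0.0404 and 0.406 ± 0.0360 (limma adjusted p = 0.00183 and 1.47e-05). The knockout is a stable line and the knockdown a transfection of another depth, so sizes of loss in the 2 experiments carry those differences too.

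For Um1804 and Um1326 the outcome depended on the scale. As a ratio of read ends, Um1804 rose 3.62-fold in the knockout and 2.49-fold in siDHX15, and edgeR on the counts did not call the difference of effects (adjusted p = 0.191). Read 3' ends alone did not call it at Um1804 either (-0.291, adjusted p = 0.0777). At Um1326 edgeR gave an adjusted p of 0.0562, whereas from read 3' ends alone the difference on the score scale was larger (-0.515, adjusted p = 0.0481). Gm1328, Um1442 and Gm1490 were called by edgeR as well (adjusted p = 0.00921, 0.0450 and 0.000124). In the test of log2 relative read ends over all positions, described below, only Gm1490 of these sites was called.

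At the other sites called in 1 perturbation the difference of effects did not pass the threshold, so they are not shown to differ between the 2. It was 0.0953 at Am1383 (limma adjusted p = 0.0535), -0.162 at Cm1391 (adjusted p = 0.149) and -0.114 at Gm1447 (adjusted p = 0.437). Am1383 passed without siDHX15 replicate 1 (0.0635, adjusted p = 0.0289) or 3 (0.118, adjusted p = 0.0141) and by edgeR (adjusted p = 0.00174). Cm1391 passed without GPATCH4 KO replicate 3 (-0.226, adjusted p = 0.0168) and with 2 neighbours on each side (-0.142, adjusted p = 0.0422), and Gm1447 with a block for library index (-0.257, adjusted p = 0.0403).

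**Figure D3:**
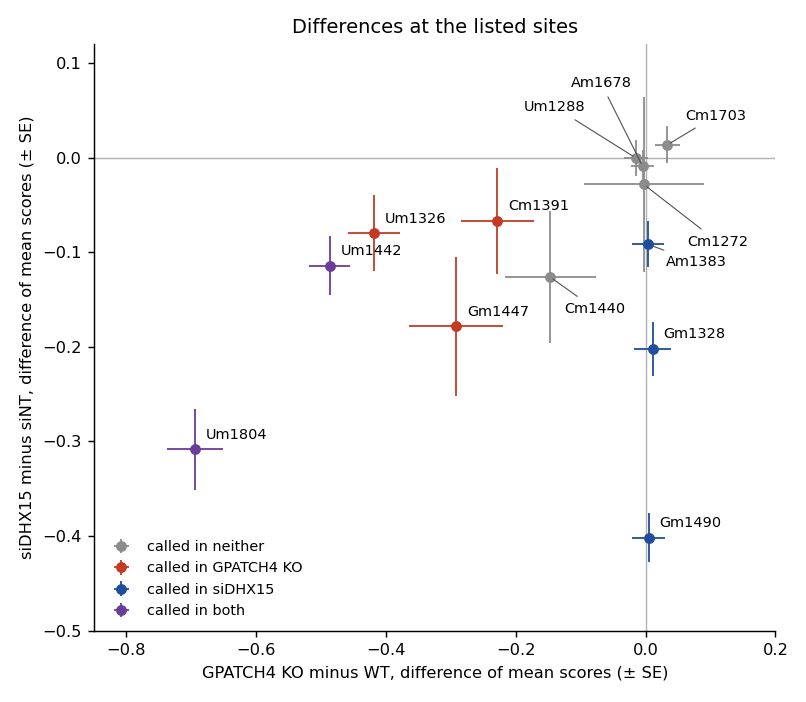
Difference of mean scores in GPATCH4 KO minus WT (horizontal) and siDHX15 minus siNT (vertical) for each of the 13 sites, with the SE of the limma fit as bars. Colours show in which comparison a site was called. Gm1490 and Gm1328 lie near 0 on the horizontal axis, and Um1804 is lowest there at -0.694.

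Of the closely spaced sites, Um1326 and Gm1328 differed in opposite directions in the difference of effects. Um1326 lost 0.419 in the knockout while Gm1328, 2 nt downstream, moved by 0.0106, and in siDHX15 Gm1328 lost 0.202 while Um1326 moved by -0.0801. Because each lies in the other's neighbour mean, the fit was repeated with listed sites left out of that mean. The same 5 sites were then called in the knockout, and in siDHX15 the same 5 and Cm1440. Am1383 and Cm1391, 8 nt apart, were called in siDHX15 and in the knockout, respectively, though their difference of effects did not pass. In the cluster of Cm1440, Um1442 and Gm1447, both latter sites, 5 nt apart, were lower in the knockout.

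The calls are given here by the host gene of the guide, and sites within a host gene were not compared by a test. Of the pair encoded in RPL13A, SNORD33's site Um1326 was lower in the knockout and SNORD32A's site Gm1328 in siDHX15. Of the SNHG1 group, SNORD28's site Cm1391 was lower in the knockout, and SNORD30's and SNORD25's sites Am1383 and Gm1490 were both lower in siDHX15 and both uncalled in the knockout. In NCL, SNORD20's site Um1804 was lower in both perturbations and SNORD82's site Am1678 in neither. The amounts of these snoRNAs were not analysed here.

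The unlisted positions show what the assay gives without a listed methyl group. Of the 650 that have a score, the median was 0.0332 to 0.0812 per library, 42.8 to 46.3% were at 0, and 4.0 to 10.5% reached 0.5. In any library 1 to 7 of them reached 0.75. By comparison 7 of the 13 listed sites were at 0.5 or more in every library, and 11 in every WT and siNT library. The exceptions were Cm1440, which stayed at 0.329 or below, and Cm1272, at 0.477 in the first WT library.

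**Figure D4:**
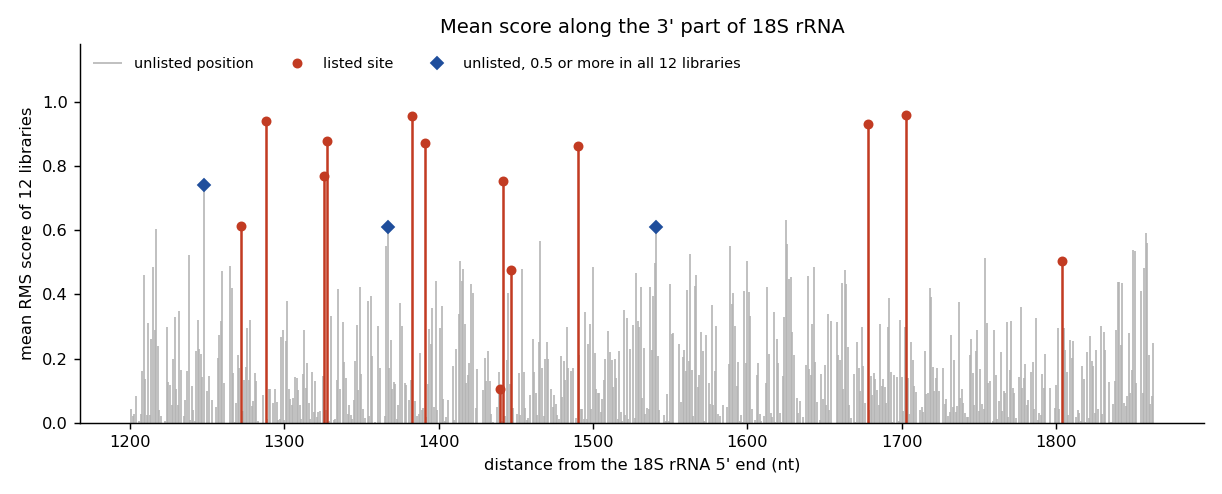
Mean RMS score of 12 libraries at each of the 663 scored positions (vertical axis), by distance from the 5' end of 18S rRNA in nt. Red marks the listed sites and diamonds the 3 unlisted positions at 0.5 or more in all libraries, of which U1248 is highest at 0.742. Cm1440, at the left of the cluster of 3 listed sites, is no higher than many unlisted positions.

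Only 3 unlisted positions reached 0.5 in all 12 libraries. The highest was U1248, known as a hypermodified pseudouridine in the head of the subunit near the tRNA in the P site, which carries base modifications and no ribose methyl group. It is shown as uuaauuugacUcaacacggga with U1248 in capitals. It scored 0.646, 0.668 and 0.816 in WT, 0.685, 0.756 and 0.751 in GPATCH4 KO, 0.707, 0.725 and 0.791 in siNT, and 0.755, 0.765 and 0.838 in siDHX15. The groups overlapped in both comparisons, and read ends relative to neighbours were 0.961-fold in the knockout (limma adjusted p = 0.993) and 0.823-fold in siDHX15 (limma adjusted p = 1.00). The mean score of U1248 was thus above those of the listed Cm1272 and Gm1447 in all 4 groups.

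G1541 and U1367 were the other two. G1541 ranged from 0.50 to 0.876 over the 12 libraries, and its highest values, 0.876 and 0.831, came from WT replicate 3 and siNT replicate 3. U1367 ranged from 0.512 to 0.711. Neither was called in any comparison.

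Some other bases known to be modified in this stretch were looked up by name, and these had no common score. Pseudouridines other than U1248 were not among them. The paired dimethyladenosines near the 3' end, A1850 and A1851, which were picked after their values were seen, are the capitals in uccguaggugAAccugcggaag. They averaged 0.539 and 0.534 over the 12 libraries, with ranges from 0.380 to 0.741 and from 0.412 to 0.677. These values rest on read 3' ends, as at most 21 read 5' ends of a group fall on either, and none on any position after 1853. The N7-methylguanosine G1639 ranged from 0.0906 to 0.835, and both extremes came from GPATCH4 KO libraries. It scored 0.655, 0.504 and 0.541 in siNT and 0.280, 0.398 and 0.276 in siDHX15, and was not called. The acetylated cytidines differed, with C1337 at 0.00737 or below in every library and C1842 between 0 and 0.602. C1842 scored 0.463, 0.532 and 0.602 in WT and 0.197, 0 and 0.389 in GPATCH4 KO, and was not called. In the other perturbation, values of G1639 and of C1842 overlapped with their control. The N6-methyladenosine A1832 ranged from 0.000520 to 0.542.

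Read ends relative to neighbours were also tested on the log2 scale at all 7354 positions with a neighbour mean of at least 10, listed or not. In GPATCH4 KO 22 of them (0.299%) were called and in siDHX15 23 (0.313%), all with more ends and all listed sites. Of the 650 unlisted positions in the stretch 0 were called by limma in either, with an unadjusted p under 0.05 at 43 (6.62%) in the knockout and at 11 (1.69%) in siDHX15. In siNT against WT 0 of 7354 (0%) were called, and 34 of the 650 (5.23%) had an unadjusted p under 0.05. The median size of the difference at these 650 positions was 0.179 in the knockout and 0.135 in siDHX15 on the log2 scale.

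On this stricter test, with its adjustment over all positions, Um1326, Um1442 and Um1804 were called in the knockout (log2 differences of 2.49, 2.62 and 1.86, limma adjusted p = 0.00959, 0.00146 and 0.00337). In siDHX15 Am1383 and Gm1490 were called (2.48 and 3.12, limma adjusted p = 0.0161 and 0.00134). Cm1391 in the knockout, at 2.65 (adjusted p = 0.0664), and in siDHX15 Gm1328, at 2.16 (adjusted p = 0.0696), and Um1804, at 1.32 (adjusted p = 0.0681), did not pass. They exceeded the largest size at an unlisted position of the stretch in the same comparison. That size was 1.33 in the knockout and 0.947 in siDHX15. Gm1447 in the knockout, at 0.802 (limma adjusted p = 0.713), did not pass either and lay below it. Um1442 in siDHX15, at 1.21 (limma adjusted p = 0.572), did not pass but lay above it. Over all 7223 unlisted positions tested, the largest size was 1.525 in the knockout and 1.44 in siDHX15. Um1804 and Um1442 in siDHX15 did not reach the latter.

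**Figure D5:**
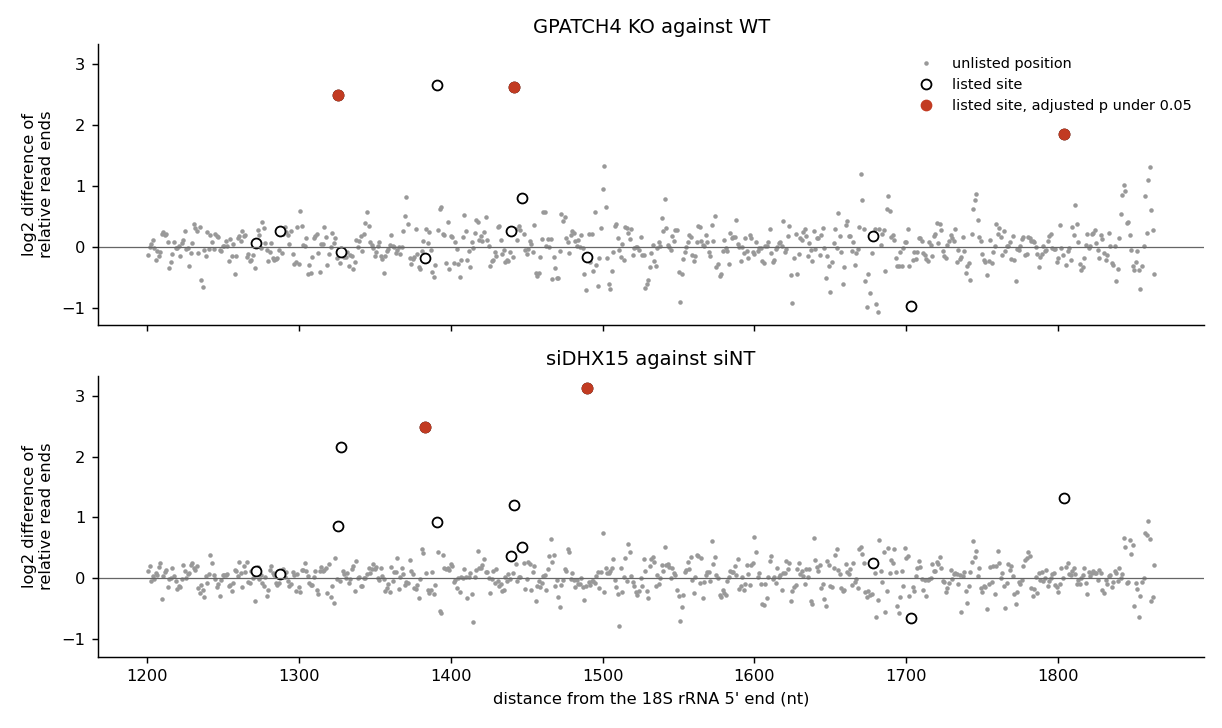
Log2 difference of read ends relative to neighbours along the stretch, by distance from the 5' end of 18S rRNA in nt, for GPATCH4 KO against WT (top) and siDHX15 against siNT (bottom). Grey dots are unlisted positions, circles listed sites and red circles those called over all positions. No unlisted position exceeds 1.33 in size.

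The score could be split into one from read 5' ends and one from read 3' ends. At Gm1490 both gave a low value in siDHX15, 0.435 ± 0.0205 from 5' ends and 0.659 ± 0.112 from 3' ends (SD, n = 3). At Um1804 all 3 knockout libraries were at 0 from 5' ends but at 0.268 ± 0.173 from 3' ends. Gm1447 had the largest gap between the kinds of ends in WT, at 0.675 ± 0.109 from 5' ends and 0.402 ± 0.0622 from 3' ends in WT, and with the order turned in siNT, at 0.515 ± 0.128 and 0.662 ± 0.129.

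Per the file headers, the 12 libraries used 6 indices, each once among WT and knockout libraries and once among siRNA libraries, and libraries of 1 index deviated together from their group means over all listed sites (correlations from 0.161 to 0.496). WT replicate 3 and siNT replicate 3, which share an index, both lay above their group means at Cm1272, by 0.197 and 0.0908. Their deviations were -0.0768 and -0.0528 at Um1326 and -0.0489 and -0.0301 at Gm1328, but 0.117 and -0.0183 at Gm1447 and 0.03 and -0.0924 at Um1804. They had the same sign at 8 of the 13 sites and opposite signs at 5, and over the 6 pairs the same sign was found at 3 to 10 of the 13. With the index as a block the same 5 sites were called in the knockout, while in siDHX15 the calls at Am1383 and Um1442 were lost and Um1326 was gained. What sharing an index stands for was not tested.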

How the data were processed

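Per the file headers, the authors deposited whole-number counts of read 5' and 3' ends at each position and library, and a score, a fraction from 0 to 1. Tools named in the submitters' processing notes are cutadapt 2.0 and Bowtie2 2.3.4.1, with the build hg38. The score was recomputed from the deposited counts as 1 minus the ends at a position over the mean of the weighted neighbour means on both sides (6 positions a side, weights 1.0 to 0.5), set to 0 where negative. It matched at 8044 positions within 1e-08. Scores at 8 snRNA sites were the deposited recalculated fractions, and none in the stretch was recalculated. The test on scores was limma 3.58.1 (R 4.3.3), with 4 group means. All positions were fitted as log2((ends + 0.5)/(neighbour mean + 0.5)) with a variance trend. The alternatives were edgeR 4.0.16 quasi-likelihood tests of the counts, offset by each neighbour mean, other scores, filters and fits, and leaving out each library. The 10 further thinning draws were chosen after seeing the data. Fits were tested on simulated data. All 13 sites are named; unlisted positions are named if at 0.5 or more in every library. Members, lists and tests were chosen with earlier results of these data known.

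Same-numbered siNT and siDHX15 libraries deviated together from their group means (correlations of 0.117, 0.160 and 0.166 over all listed sites), which meets the criterion for pairing, 0.1 in every pair. In replicate 1, however, the same-numbered library was not the best correlated one. Same-numbered WT and knockout libraries did not meet the criterion (0.120, 0.0459 and -0.000863). Same-numbered WT and siNT libraries, from the 2 experiments, had -0.197, 0.235 and 0.325. The labels do not say whether same-numbered libraries were handled together, and the main fit used no replicate block.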

Additional observations from a re-analysis of the deposited data

Results flagged for a closer look

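At 5 sites the effect of GPATCH4 loss differed from the effect of DHX15 depletion in the test of that difference (knockout effect minus knockdown effect, limma score scale, n = 3 libraries a group). It was -0.339 at 18S-Um1326, -0.373 at 18S-Um1442 and -0.386 at 18S-Um1804, where the knockout lost more, and 0.213 at 18S-Gm1328 and 0.406 at 18S-Gm1490, where the knockdown lost more. Over all listed sites 53 of 141 (37.6%) were called, a share close to 5 of 13 (38.5%). By edgeR on the counts, the difference was not called at 18S-Um1804 (adjusted p = 0.191) or 18S-Um1326 (adjusted p = 0.0562). As log2 relative read ends, tested over all positions, it was called at 18S-Gm1490 alone of these sites.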

How the results depend on the processing

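Counts of called sites were recomputed under 40 alternatives, fewer where a comparison could not be fitted. In GPATCH4 KO the count was 4 to 6 and in siDHX15 4 to 6, except from read 3' ends alone, where it was 2 in siDHX15. These counts hold both directions. With each library centred they were 5 lower and 1 higher in the knockout, and 3 lower and 3 higher in siDHX15. For the difference of effects it was 4 to 7, and in siNT against WT 0 throughout. Leaving out 1 library gave 5 to 6 calls in the knockout, 4 to 6 in siDHX15 and 5 to 6 for the difference of effects. With a block for replicate number, shared by all 4 groups, the calls numbered 5, 5, 5 and 0 in the 4 comparisons, at the same sites as without it. A fit that paired only the siNT with the siDHX15 libraries was not run. Unlisted positions had 0 calls, except 3 in siNT against WT from read 5' ends alone and 1 in the knockout without siDHX15 replicate 2. With each library centred, which moves all sites by the same amount, 2 differences in siDHX15 turned from uncalled and negative to called and positive. They were at Um1288 (0.0685) and Am1678 (0.0597). Over the 39 results by site and comparison, 1406 of 1463 values kept direction and side of the threshold or stayed uncalled, 27 lost and 28 gained a call, and 2 turned. At the depth of the shallowest library, 4 to 5 knockout sites and 4 to 6 siDHX15 sites were called over 11 draws.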
